A study of Mus musculus with 12 samples.

Results

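Hyaluronan, TSG-6 and pentraxin 3 are represented here by 5 mouse genes, *Tnfaip6*, *Ptx3*, *Has1*, *Has2* and *Cd44*, out of 21001 genes listed in the sequenced libraries. The 5 genes were chosen from earlier results of these same data, so their differences between groups are given as levels, fold changes and standard errors (SE), without p-values. Levels are in FPKM, fragments corrected for the length of a transcript and for how many fragments a library mapped, summed over the transcripts of a gene, and all 5 genes were found in the files.

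RNA was sequenced from bone marrow stromal cells that carry green fluorescent protein (GFP-BMSCs) in 4 groups of 3 libraries. TUMOR cells were taken from the place of inoculation in mice that had received GFP-BMSCs with cells of the mouse tumour line Lewis lung carcinoma, marked with a red fluorescent protein (RFP-LLCs). BM cells were recovered from the marrow of such co-injected, tumour-bearing mice. HOMING cells were recovered from the marrow of mice given GFP-BMSCs alone under the skin. NC cells were GFP-BMSCs in primary culture. All 4 groups are labelled as C57BL/6, as "wide type" and as sorted. The sources used here give no sorting gate, no purity and no age or number of animals, and do not say whether the 3 libraries of a group came from separate mice or cultures, so errors and p-values measure only the spread between these libraries.

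Hyaluronan is a long unbranched sugar chain that hyaluronan synthases, among them HAS1 and HAS2, make at the cell membrane and push out of the cell. TSG-6, the product of *Tnfaip6*, is a secreted protein that binds hyaluronan and moves heavy chains of the inter-alpha-inhibitor onto it, and pentraxin 3 (PTX3), a soluble pattern recognition protein, binds both TSG-6 and these heavy chains and ties the chains into a network, as is known from the matrix around the mouse oocyte. CD44 is the main cell surface receptor for hyaluronan. Stromal cells of the marrow are known to secrete TSG-6 when exposed to inflammatory cytokines such as TNF and IL-1.

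Library totals ran from 43232145 to 46166519 expected counts. Stromal identity was checked on 9 markers, none of which was at 0 throughout a group, and their summed level was 465 to 600 FPKM in TUMOR, 493 to 519 FPKM in BM, 433 to 475 FPKM in HOMING and 665 to 735 FPKM in NC. The HOMING libraries stood apart in markers of other marrow cells. Neutrophil markers other than *Lcn2*, which alone held 94.3 to 99.6% of that list's level in TUMOR and NC, summed to 0.9 to 2.54 FPKM in TUMOR, 49.4 to 57.8 FPKM in BM, 1710 to 2500 FPKM in HOMING and 1.3 to 2.72 FPKM in NC, and *Mpo* and *Retnlg* were at 0 in TUMOR and in NC, as was *Elane* in NC. The 11 monocyte and macrophage markers summed to 25.8 to 26.5 FPKM in TUMOR, 64.9 to 66.0 FPKM in BM, 291 to 469 FPKM in HOMING and 13.7 to 20 FPKM in NC, with *Adgre1* at 0 in TUMOR and *Cybb* at 0 in NC. The 6 erythroid markers reached 1800 to 2950 FPKM in HOMING, against at most 2.47 FPKM in the other groups. The 5 epithelial markers summed to 69.5 to 115 FPKM in TUMOR, 6.31 to 6.93 FPKM in BM, 5.9 to 6.44 FPKM in HOMING and 1.92 to 4.23 FPKM in NC. The part of these other cells in the results that follow was not tested.

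The stretches of 160 bases before the transcription start are shown for the 3 genes whose promoter held a searched motif there, so that the letters can be set beside the levels. They are from RefSeq on build GRCm38.p6, which is not the build of the deposited files, and lie at chr2:52037953-52038112 on the + strand (*Tnfaip6*), chr3:66219727-66219886 on the + strand (*Ptx3*) and chr17:17855189-17855348 on the - strand (*Has1*), each written 5′ to 3′. Capitals mark an AP-1 match and a C/EBP match in *Tnfaip6*, a C/EBP match in *Ptx3* and a CRE match in *Has1*.
Tnfaip6: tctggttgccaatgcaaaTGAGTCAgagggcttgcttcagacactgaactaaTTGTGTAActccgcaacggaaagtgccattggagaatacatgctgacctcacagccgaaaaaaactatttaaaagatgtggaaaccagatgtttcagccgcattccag
Ptx3: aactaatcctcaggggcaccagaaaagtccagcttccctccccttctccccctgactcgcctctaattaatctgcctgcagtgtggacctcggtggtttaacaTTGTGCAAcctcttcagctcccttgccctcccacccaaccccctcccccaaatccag
Has1: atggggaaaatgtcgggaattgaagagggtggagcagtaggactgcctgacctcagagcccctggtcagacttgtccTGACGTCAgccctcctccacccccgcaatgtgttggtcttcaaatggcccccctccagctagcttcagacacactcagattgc
The *Tnfaip6* AP-1 match (motif TGANTCA) lies at -142 to -136 from the start, and 7.81% of 32851 RefSeq promoter windows of 300 bases held this motif on either strand. Its C/EBP match (motif TTNNGNAA) lies at -108 to -101, and 40.7% of windows held that motif, as did *Ptx3* at -57 to -50 and, outside the stretch shown, *Has1* at -213 to -206 and across its start at -4 to 4. The CRE match (motif TGACGTCA) of *Has1* lies at -83 to -76 and was found in 1.79% of windows. The *Ptx3* window also held NF-kB matches on both strands that overlap each other, a motif found in 4.51% of windows. The + strand match crosses the start (-1 to 9), and the - strand match does not (1 to 10). The *Cd44* window held none of the 4 motifs. The promoter table held 4 of the 5 genes, without *Has2*. These matches describe letters and show no binding.

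*Tnfaip6*, which encodes TSG-6, was highest in stromal cells from the marrow of tumour-bearing mice. Its level was 2.06, 2.28 and 2.63 FPKM in the TUMOR libraries, 26.4, 25.0 and 29.6 FPKM in the BM libraries, 2.88, 3.06 and 2.84 FPKM in the HOMING libraries and 8.56, 6.77 and 7.55 FPKM in the NC libraries. The order of the groups was BM, NC, HOMING and TUMOR, and no 2 neighbours in this order overlapped. The mean was 2.32 ± 0.287 FPKM in TUMOR, 27.0 ± 2.32 FPKM in BM, 2.93 ± 0.117 FPKM in HOMING and 7.63 ± 0.897 FPKM in NC (SD, n = 3 each). Cells from inside the tumour site and cells from the marrow of the same kind of host thus stood at opposite ends of the range, and the narrowest step, between HOMING and TUMOR, was a ratio of means of 1.26. All reads were assigned to 1 transcript, NM_009398, with 6 exons and 1601 bases, and no annotated gene overlaps it. In bulk RNA such as this, fewer cells that make a transcript and less of it per cell cannot be told apart.

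*Ptx3*, which encodes pentraxin 3, was the most abundant of the 5 genes per length in NC and BM. It measured 31.8, 43.8 and 41.8 FPKM in the TUMOR libraries, 337, 332 and 359 FPKM in the BM libraries, 125, 120.1 and 127 FPKM in the HOMING libraries and 775, 698 and 556 FPKM in the NC libraries. Cultured cells were highest, then BM, HOMING and TUMOR, again with no overlap between neighbours. Means were 39.1 ± 6.41 FPKM in TUMOR, 343 ± 14.6 FPKM in BM, 124 ± 3.50 FPKM in HOMING and 676 ± 111 FPKM in NC (SD, n = 3 each). The coefficient of variation was 16.4% in both TUMOR and NC, beside 4.27% in BM and 2.82% in HOMING, and NC replicate 3 was the lowest NC library. Reads were assigned to 1 transcript of 3 exons, NM_008987. *Veph1*, a gene that overlaps *Ptx3* in the annotation, was at 0.14 FPKM in TUMOR, 0.133 FPKM in BM, 0.123 FPKM in HOMING and 0.493 FPKM in NC on average, far under *Ptx3* in every group.

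The 2 secreted partners did not keep a fixed proportion. The ratio of *Ptx3* to *Tnfaip6* FPKM was 15.4, 19.2 and 15.9 in TUMOR, 12.8, 13.3 and 12.2 in BM, 43.6, 39.2 and 44.6 in HOMING and 90.5, 103 and 73.7 in NC. BM had the lowest ratio, TUMOR the next, and NC the highest, with no overlap between any groups. The BM and TUMOR groups, both from co-injected mice, had ratios closer to each other than to those of HOMING or NC, at levels of both genes that differed widely.

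**Figure D1:**
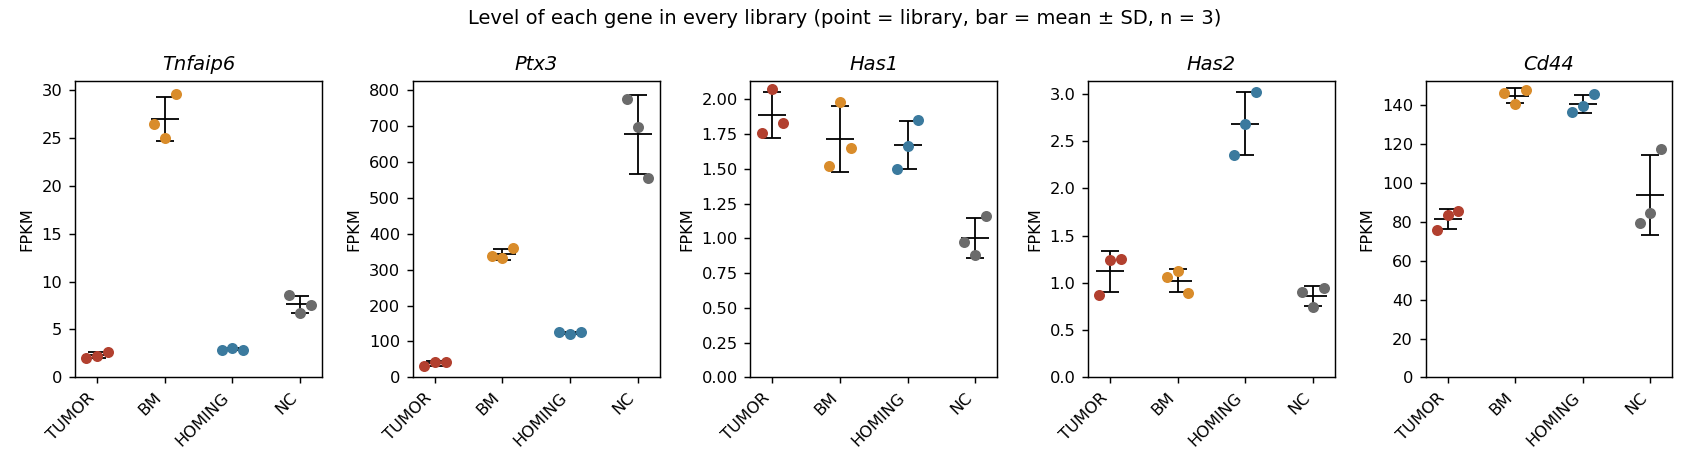
Level of *Tnfaip6*, *Ptx3*, *Has1*, *Has2* and *Cd44* in every library, in FPKM on linear axes from 0, with a panel for each gene and the groups TUMOR, BM, HOMING and NC from left to right. Points are libraries and bars are mean ± SD (n = 3): *Tnfaip6* stands highest in BM at 25.0 to 29.6 FPKM, *Ptx3* in NC at 556 to 775 FPKM and *Has2* in HOMING at 2.35 to 3.02 FPKM.

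The synthase genes were the least abundant of the 5 per length, by group means in every group. *Has2*, which encodes the synthase known to make most hyaluronan in many mesenchymal cells, measured 0.87, 1.24 and 1.25 FPKM in TUMOR, 1.06, 1.12 and 0.89 FPKM in BM, 2.35, 2.68 and 3.02 FPKM in HOMING and 0.90, 0.74 and 0.94 FPKM in NC. HOMING stood clear of all other libraries, while TUMOR, BM and NC overlapped. Means were 1.12 ± 0.217 FPKM in TUMOR, 1.02 ± 0.119 FPKM in BM, 2.68 ± 0.335 FPKM in HOMING and 0.860 ± 0.106 FPKM in NC (SD, n = 3 each). The HOMING libraries are also those with the leukocyte and erythroid markers given above, and *Ptprc*, a gene of all leukocytes, was at 5.94, 5.94 and 10.6 FPKM in them, against at most 0.31 FPKM in any other library. The part of these cells in the *Has2* level was not tested. The antisense gene *Has2os* overlaps *Has2* and was at 0.27 FPKM or less in every library.

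*Has1*, the other synthase, needs to be read by transcript, because the gene sum mixes 3 transcripts that differed between groups in different directions. The summed level was 1.76, 2.07 and 1.83 FPKM in TUMOR, 1.52, 1.98 and 1.65 FPKM in BM, 1.5, 1.66 and 1.85 FPKM in HOMING and 0.97, 0.88 and 1.16 FPKM in NC. By this sum TUMOR, BM and HOMING overlapped and only NC stood lower. The RefSeq transcript NM_008215, with 5 exons and 2107 bases, gave another picture. It measured 0.21, 0.54 and 0.33 FPKM in TUMOR, 1.33, 1.76 and 1.41 FPKM in BM, 0.70, 0.58 and 0.86 FPKM in HOMING and 0.65, 0.50 and 0.82 FPKM in NC. BM lay above every other library for this transcript, HOMING and NC overlapped, and TUMOR was lowest on average but overlapped NC. The counts behind it were small, at 18.5 to 48.1 expected counts a library in TUMOR, 122 to 162 in BM, 52.0 to 77.3 in HOMING and 46.1 to 76.9 in NC.

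The rest of the *Has1* sum came from 2 very long transcripts that the files name BGI_novel_T004570 (12587 bases) and BGI_novel_T004571 (32909 bases). The longer one measured 1.20, 1.26 and 1.18 FPKM in TUMOR, 0.12, 0.13 and 0.16 FPKM in BM, 0.69, 0.72 and 0.73 FPKM in HOMING and 0.28, 0.31 and 0.26 FPKM in NC. No groups overlapped, and BM was the lowest group where NM_008215 had BM as the highest. The 2 long transcripts took 98.4% of the *Has1* expected counts in TUMOR, 63.9% in BM, 94.8% in HOMING and 88.2% in NC on average, and 81.3%, 12.7%, 57.3% and 35.2% of its FPKM in the same groups. In the annotation *Has1* overlaps *Spaca6*, a gene known for its role in sperm, and the lncRNA *Gm36907*. *Spaca6* was at 7.33 ± 0.65 FPKM in TUMOR, 2.90 ± 0.326 FPKM in BM, 5.51 ± 0.509 FPKM in HOMING and 4.18 ± 0.358 FPKM in NC (SD, n = 3 each), the same order of groups as the longer unnamed transcript. The sources used here do not give whether counting used strand. Reads of *Has1* and of genes that overlap it therefore cannot be told apart in the sum, and differences in that sum are uncertain. The expected counts of NM_008215 were not whole numbers either, at 18.53, 48.12 and 29.99 in TUMOR. Reads it shared with other transcripts were thus divided by the program that estimated the counts, so its levels and ratios are uncertain too.

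**Figure D2:**
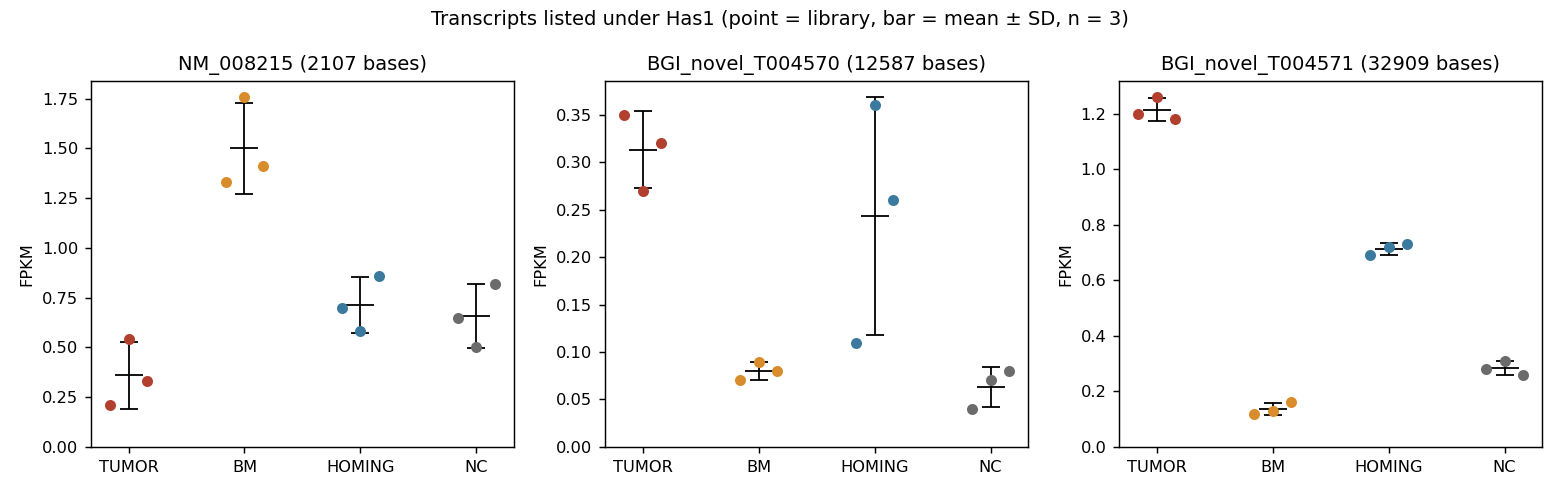
FPKM of each transcript listed under *Has1*, in separate panels with linear axes from 0, for the groups TUMOR, BM, HOMING and NC. Points are libraries and bars are mean ± SD (n = 3): NM_008215 is highest in BM (1.33 to 1.76 FPKM), while BGI_novel_T004571 is highest in TUMOR (1.18 to 1.26 FPKM) and lowest in BM (0.12 to 0.16 FPKM).

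With the synthases set side by side per length, *Has2* over NM_008215 was a ratio of 4.14, 2.30 and 3.79 in TUMOR, 0.797, 0.636 and 0.631 in BM, 3.36, 4.62 and 3.51 in HOMING and 1.38, 1.48 and 1.15 in NC. BM was the only group in which the *Has1* transcript exceeded *Has2* in all 3 libraries. TUMOR and HOMING overlapped in this ratio, and both lay above NC.

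*Cd44*, which encodes the hyaluronan receptor, was abundant in every group. It measured 75.7, 83.8 and 85.5 FPKM in TUMOR, 147, 141 and 148 FPKM in BM, 137, 139.6 and 146 FPKM in HOMING and 79.6, 84.6 and 117 FPKM in NC. Cells from marrow, with or without a tumour in the host, stood above both tumour-site and cultured cells. Means were 81.6 ± 5.25 FPKM in TUMOR, 145 ± 3.69 FPKM in BM, 141 ± 4.57 FPKM in HOMING and 93.9 ± 20.5 FPKM in NC (SD, n = 3 each). BM and HOMING overlapped, as did NC and TUMOR, and NC replicate 3 stood above the other NC libraries.

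*Cd44* reads were assigned to 6 RefSeq transcripts. NM_001039151, with 9 exons and a coding length of 1095 bases, is the standard form without the variable exons of the extracellular stem, and it carried 95.7% of the *Cd44* expected counts in TUMOR, 93.8% in BM, 95.3% in HOMING and 93.7% in NC on average. The 5 longer transcripts, with 11 to 19 exons, summed to 3.13, 2.57 and 3.46 FPKM in TUMOR, 7.60, 7.35 and 8.21 FPKM in BM, 5.82, 5.52 and 5.75 FPKM in HOMING and 4.50, 4.39 and 6.02 FPKM in NC. Their share of the *Cd44* FPKM was 3.07 to 4.14% in TUMOR, 5.19 to 5.56% in BM, 3.95 to 4.25% in HOMING and 5.13 to 5.65% in NC. BM and NC overlapped in this share and lay above TUMOR and HOMING, which also overlapped. BM and HOMING, which overlapped in total *Cd44*, thus did not overlap in the level or share of the longer forms.

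The longer form with the highest level was NM_001177785, with 16 exons, at 0.97, 0.97 and 1.52 FPKM in TUMOR, 3.51, 3.74 and 3.70 FPKM in BM, 2.55, 2.39 and 2.48 FPKM in HOMING and 2.64, 2.32 and 3.57 FPKM in NC. Its log2 fold change was -1.73 ± 0.205 in TUMOR against BM and 0.59 ± 0.199 in BM against HOMING (SE), beside -0.87 ± 0.133 and 0.06 ± 0.132 for the standard form. The splicing factors *Esrp1* and *Esrp2*, known to favour variable exons of CD44 in epithelial cells, were low throughout: *Esrp1* was at most 0.04 FPKM in any library and *Esrp2* averaged 0.107 FPKM in TUMOR, 0.0167 FPKM in BM, 0.0167 FPKM in HOMING and 0.00667 FPKM in NC. How reads shared between these transcripts were divided depends on the program that estimated the counts.

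**Figure D3:**
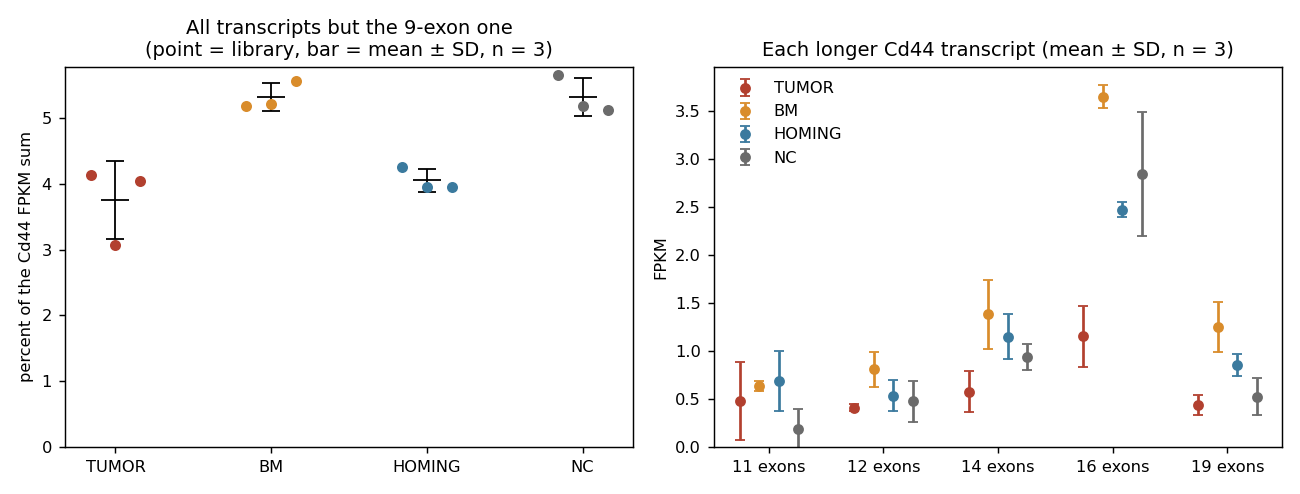
Longer *Cd44* transcripts in the groups TUMOR, BM, HOMING and NC. The left panel gives the percentage of *Cd44* FPKM in all transcripts but the 9-exon one, with points for libraries and bars for mean ± SD (n = 3), where BM and NC lie above TUMOR and HOMING; the right panel gives the mean FPKM ± SD (n = 3) of each longer transcript by its number of exons, where the 16-exon form is highest in every group.

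The 5 genes were next set side by side in the 6 comparisons between groups, with log2 fold changes and SE from an edgeR quasi-likelihood fit on summed, rounded expected counts of 12314 genes. A call needed a Benjamini-Hochberg adjusted p below 0.05 and a difference of 1 or more on the log2 scale. All 5 genes passed the filter of at least 1 FPKM in at least 3 libraries. Because the genes were chosen on these comparisons, the counts of called genes are descriptions, and nothing is read from the shares of all genes called that are printed beside them. Comparisons that share a group share its libraries.

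Between marrow and culture, HOMING against NC had 2 of the 5 genes called higher and 2 called lower, where 9.64% of all tested genes were called higher and 4.69% lower. The log2 fold change was -1.49 ± 0.10 for *Tnfaip6* and -2.56 ± 0.12 for *Ptx3*, so both secreted proteins had lower transcript levels in HOMING cells than in cultured cells. *Has2* stood at 1.53 ± 0.16 and *Cd44*, which was not called, at 0.47 ± 0.12. The *Has1* sum stood at 1.17 ± 0.08, but NM_008215 alone at 0.00 ± 0.35.

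BM against NC had 1 gene called higher, *Tnfaip6* at 1.74 ± 0.10, and 1 called lower, *Ptx3* at -1.06 ± 0.11, where 7.93% of all tested genes were called higher and 3.57% lower. TSG-6 and pentraxin 3 transcripts thus differed from culture in opposite directions in marrow cells of tumour-bearing mice. The *Ptx3* value lay close to the minimum fold change and was -0.96 without NC replicate 1, which leaves 1 gene called. *Cd44* stood at 0.54 ± 0.12, *Has2* at 0.17 ± 0.16 and the *Has1* sum at -0.51 ± 0.09. NM_008215 alone was at 1.10 ± 0.35, the direction opposite to the sum.

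TUMOR against NC had 1 gene called higher, the *Has1* sum at 1.84 ± 0.08, and 2 called lower, where 9.75% of all tested genes were called higher and 6.65% lower. *Ptx3* showed the widest difference of any of the 5 genes in any comparison, at -4.23 ± 0.13. *Tnfaip6* stood at -1.84 ± 0.11, *Cd44* at -0.33 ± 0.12 and *Has2* at 0.26 ± 0.16. NM_008215 was at -1.01 ± 0.36, so the direction of *Has1* turned with the transcripts counted. *Cd44* moved to -0.13 without NC replicate 3.

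BM against HOMING, the comparison of marrow cells from hosts with and without a tumour, had 2 genes called higher and 2 called lower, where 3.71% of all tested genes were called higher and 6.68% lower. *Tnfaip6* stood at 3.23 ± 0.10 and *Ptx3* at 1.5 ± 0.11, both higher in BM. *Has2* was lower in BM at -1.36 ± 0.16, and *Cd44* was at 0.08 ± 0.12. The *Has1* sum was at -1.69 ± 0.08, whereas NM_008215 was at 1.11 ± 0.35 and the sum on the log2(FPKM + 1) scale differed by 0.02. HOMING is also the group with the high blood cell markers, and the part of those cells in these 4 calls was not tested.

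TUMOR against BM, the comparison of 2 sites in co-injected mice, had 1 gene called higher and 2 called lower, where 6.95% of all tested genes were called higher and 7.28% lower. Both secreted partners were far lower in TUMOR, with *Tnfaip6* at -3.58 ± 0.11 and *Ptx3* at -3.18 ± 0.12. *Cd44* stood at -0.88 ± 0.12 and *Has2* at 0.09 ± 0.16. The called higher gene was the *Has1* sum at 2.35 ± 0.08, with NM_008215 at -2.11 ± 0.36. The epithelial markers given above were highest in TUMOR, and their part in these differences was not tested.

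TUMOR against HOMING had no gene called higher and 2 called lower, *Ptx3* at -1.68 ± 0.11 and *Has2* at -1.27 ± 0.16, where 4.42% of all tested genes were called higher and 6.37% lower. *Tnfaip6*, low in both groups, stood at -0.34 ± 0.11. *Cd44* stood at -0.80 ± 0.12, and the *Has1* sum at 0.67 ± 0.08 with NM_008215 at -1.01 ± 0.355.

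**Figure D4:**
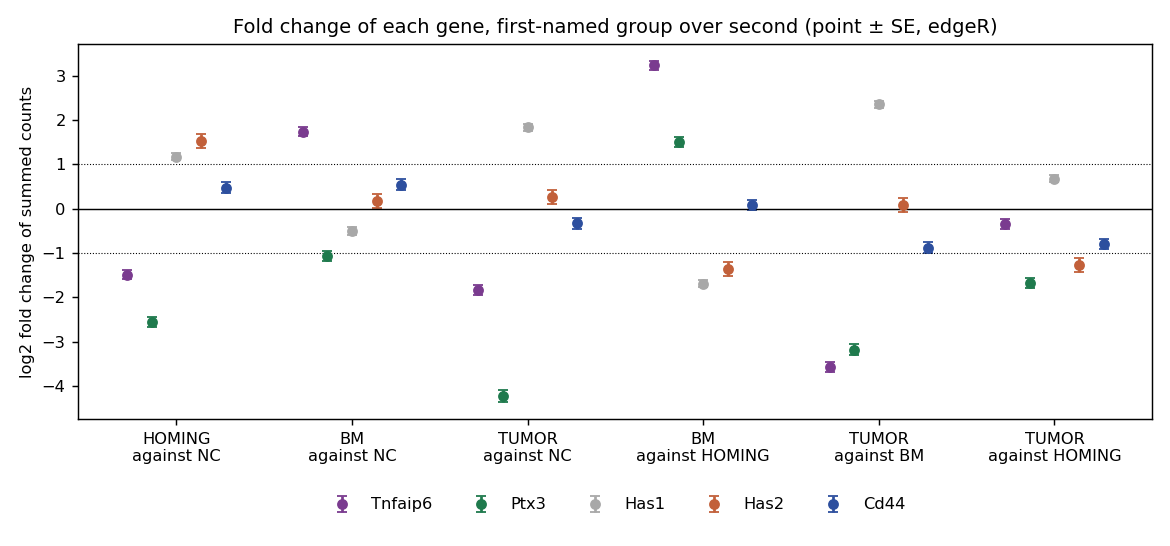
Log2 fold change of each of the 5 genes in the 6 comparisons, the group named first over the second, from summed expected counts. Points carry ± SE and dotted lines mark the minimum fold change of 1: *Tnfaip6* runs from -3.58 in TUMOR against BM to 3.23 in BM against HOMING and *Ptx3* from -4.23 in TUMOR against NC to 1.5 in BM against HOMING.

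The genes whose level over the 12 libraries was most like each of the 5 were taken from 9073 genes by Pearson's r of log2(FPKM + 1). These values are a description, because the libraries fall into 4 groups, each defined by its site or culture. *Tnfaip6* was most like *Masp1*, a protease of the complement lectin pathway (r = 0.991), then *Klf9*, *Tprkb* and *Rad52* (r = 0.982 to 0.984). *Masp1* was at 2.63 FPKM in TUMOR, 9.11 FPKM in BM, 3.06 FPKM in HOMING and 5.37 FPKM in NC, the same order of groups. *Ptx3* was most like *Tma16* (r = 0.994), *Gch1* and *Ctps* (r = 0.993 each) and *Tsr1* (r = 0.992), of which *Gch1*, the first enzyme of tetrahydrobiopterin synthesis, was at 1.56 FPKM in TUMOR, 8.84 FPKM in BM, 4.22 FPKM in HOMING and 13.1 FPKM in NC. *Has2* was most like *Ctsh*, *Fyb*, *Ptpn6* and *Cyth4* (r = 0.970 to 0.982). *Fyb*, *Ptpn6* and *Cyth4* are known from blood cells, and *Ptpn6* was at 2.29 FPKM in TUMOR, 2.26 FPKM in BM, 33.8 FPKM in HOMING and 1.74 FPKM in NC. *Cd44* was most like *Htr2a*, *Sema3c*, *Fst* and *Spop* (r = 0.975 to 0.979), and the *Has1* sum like *Arhgap10*, *Pgm2*, *Tab1* and *Alg9* (r = 0.938 to 0.952).

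Around the 5 genes, 7 lists of 75 genes of hyaluronan synthesis, breakdown, receptors, matrix partners, pentraxins, CD44 partners and inducers were described, of which 47 were tested. Of these 47, 7 (*C1qb*, *Cemip*, *Fgf2*, *Gfpt2*, *Hapln4*, *Itih2* and *Ptger4*) reached the filter through 1 group alone, so that a higher level in that group was a condition of being tested. The lists were chosen with earlier results of these data known. The counts and adjusted p-values of list genes therefore describe these libraries and are no independent test. HOMING against NC had 12 of the 47 called higher and 3 lower (10 and 1 of the 40 without those 7), beside 9.64% and 4.69% of all tested genes. BM against NC had 14 called higher and 0 lower (13 and 0 of 40), beside 7.93% and 3.57%, and TUMOR against NC 11 and 6 (10 and 4 of 40), beside 9.75% and 6.65%. BM against HOMING had 6 called higher and 8 lower (4 and 5 of 40), beside 3.71% and 6.68% of all tested genes. TUMOR against BM had 4 and 11 (3 and 9 of 40), beside 6.95% and 7.28%, and TUMOR against HOMING 6 and 12 (5 and 9 of 40), beside 4.42% and 6.37%. The median log2 fold change of the 40 genes was 0.27 in HOMING against NC, 0.40 in BM against NC, 0.15 in TUMOR against NC, -0.08 in BM against HOMING, 0.00 in TUMOR against BM and -0.07 in TUMOR against HOMING, beside medians of all tested genes between 0.00 and 0.02.

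Of the cytokines that are known to induce *Tnfaip6* and *Ptx3*, *Il1b* and *Tnf* were highest in HOMING. *Il1b* averaged 0.03 FPKM in TUMOR, 11.9 FPKM in BM, 87.4 FPKM in HOMING and 0.08 FPKM in NC, and *Tnf* 0.0433 FPKM in TUMOR, 3.29 FPKM in BM, 45.1 FPKM in HOMING and 0.0333 FPKM in NC. Both fell in BM against HOMING, with log2 fold changes of -2.85 and -3.75 (adjusted p = 2.13e-08 and 3.46e-09, edgeR), the comparison in which *Tnfaip6* stood 3.23 higher. Against NC both rose in BM, by 7.1 and 6.52, and in HOMING, by 9.95 and 10.27. *Tnfaip6* stood at 1.74 in BM against NC and -1.49 in HOMING against NC, and *Ptx3* at -1.06 and -2.56. In TUMOR against BM *Il1b* and *Tnf* stood at -8.57 and -6.22, beside -3.58 for *Tnfaip6* and -3.18 for *Ptx3*. In TUMOR against HOMING *Il1b* and *Tnf* stood at -11.42 and -9.97, beside -0.34 for *Tnfaip6* and -1.68 for *Ptx3*. *Il6*, also in this list, was highest in BM, at 1.81 FPKM in TUMOR, 32.4 FPKM in BM, 19.3 FPKM in HOMING and 13.3 FPKM in NC. Whether these cytokines had a part in the levels of the 5 genes was not tested. The myeloid markers above were also highest in HOMING, and their part in these cytokine levels was not tested. *Il1r1*, the signalling receptor of IL-1, rose in TUMOR and in BM against NC, by 1.87 ± 0.17 and 1.14 ± 0.17 (SE, adjusted p = 5.28e-07 and 7.09e-05). Of the 11 inducers and partners tested, 4 rose and 1 fell in HOMING against NC, 8 rose and 0 fell in BM against NC and 3 rose and 3 fell in TUMOR against NC, where 9.64% and 4.69%, 7.93% and 3.57%, and 9.75% and 6.65% of all tested genes passed in the 2 directions. In BM against HOMING 4 rose and 4 fell, in TUMOR against BM 0 rose and 6 fell, and in TUMOR against HOMING 2 rose and 7 fell, where 3.71% and 6.68%, 6.95% and 7.28%, and 4.42% and 6.37% of all tested genes passed. These counts include *Ptger4*, which reached the filter only through HOMING. Its falls in BM against HOMING (-1.54) and in TUMOR against HOMING (-1.42) were therefore favoured by the filter. *Ptgs2*, the inducible cyclooxygenase that is expressed together with *Tnfaip6* and *Ptx3* in cumulus cells, was at 40.5 ± 6.74 FPKM in TUMOR, 200 ± 3.33 FPKM in BM, 90.2 ± 7.09 FPKM in HOMING and 61.4 ± 25.3 FPKM in NC, and rose by 1.18 ± 0.22 in BM against HOMING (SE, adjusted p = 0.00053). *Ereg*, an EGF receptor ligand, rose by 1.54 ± 0.25 there (SE, adjusted p = 0.000163) and fell in TUMOR against BM (-3.35 ± 0.27 SE, adjusted p = 2.98e-07). *Areg* averaged 8.95 FPKM in TUMOR, 5.74 FPKM in BM, 1.01 FPKM in HOMING and 2.16 FPKM in NC. It rose in TUMOR and in BM against HOMING, by 3.13 ± 0.41 and 2.53 ± 0.41 (SE, adjusted p = 3.52e-05 and 0.000194). Against NC it rose by 1.92 ± 0.38 in TUMOR and 1.32 ± 0.38 in BM (SE, adjusted p = 0.000486 and 0.0079). It fell in HOMING against NC (-1.21 ± 0.43 SE, adjusted p = 0.0225). That call ended without NC replicate 3 (-0.39) and without HOMING replicate 1 or 2 (-1.22 and -1.15). *Nfkbia* averaged 112 FPKM in TUMOR, 161 FPKM in BM, 142 FPKM in HOMING and 50.7 FPKM in NC. It rose in BM and in HOMING against NC, by 1.58 ± 0.11 and 1.38 ± 0.11 (SE, adjusted p = 1.26e-07 and 1.51e-07). In TUMOR against NC it rose by 1.02 ± 0.11 (SE, adjusted p = 2e-06), but stood at 0.88 without TUMOR replicate 1 and 0.98 without NC replicate 2.

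Among genes that make hyaluronan precursors, *Gfpt2*, an enzyme of the hexosamine pathway, averaged 0.433 FPKM in TUMOR, 1.48 FPKM in BM, 1.06 FPKM in HOMING and 0.313 FPKM in NC, and reached the filter only through BM. In comparisons that do not use BM, it rose in HOMING against NC by 1.63 ± 0.23 (SE, adjusted p = 3.47e-05) and fell in TUMOR against HOMING (-1.29 ± 0.22 SE, adjusted p = 0.000325). *Gnpnat1*, a later enzyme of that pathway, fell in TUMOR against NC (-1.20 ± 0.08 SE, adjusted p = 4.41e-08). *Gnpnat1* also fell in TUMOR against BM (-1.19 ± 0.08 SE, adjusted p = 7.58e-08), and apart from these 2 genes none of the 8 tested in this list was called in any comparison. *Has3*, the remaining hyaluronan synthase, did not pass the filter and averaged 0.61 FPKM in TUMOR, 0.30 FPKM in BM, 0.577 FPKM in HOMING and 0.467 FPKM in NC.

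Among genes that break hyaluronan down, *Hyal1*, a lysosomal hyaluronidase, rose in TUMOR against each other group. It averaged 7.16 ± 0.661 FPKM in TUMOR, 1.78 ± 0.0611 FPKM in BM, 1.65 ± 0.153 FPKM in HOMING and 1.58 ± 0.362 FPKM in NC (SD, n = 3 each), with a log2 fold change of 2.15 ± 0.14 in TUMOR against BM (SE, adjusted p = 4.18e-08). *Cemip2*, a gene of the hyaluronidase KIAA1199 family, rose against NC in HOMING, BM and TUMOR, by 2.04 ± 0.08, 1.08 ± 0.08 and 1.22 ± 0.08 (SE, adjusted p = 2.44e-10, 1.53e-07 and 1.82e-08). *Cemip*, another gene of that family, reached the filter only through NC, and averaged 0.507 FPKM in TUMOR, 0.933 FPKM in BM, 0.847 FPKM in HOMING and 1.69 FPKM in NC. *Gusb*, the lysosomal beta-glucuronidase, averaged 28.6 FPKM in TUMOR, 24.1 FPKM in BM, 29.0 FPKM in HOMING and 12.4 FPKM in NC. It rose in HOMING against NC by 1.12 ± 0.09 (SE, adjusted p = 1.94e-07). In TUMOR against NC it rose by 1.09 ± 0.09 (SE, adjusted p = 2.22e-07), but stood at 0.98 without TUMOR replicate 1.

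Of the other hyaluronan receptors, 4 of 7 were tested. *Tlr2*, a pattern receptor reported to respond to hyaluronan fragments, was at 4.40 ± 0.575 FPKM in TUMOR, 19.5 ± 0.182 FPKM in BM, 16.2 ± 4.26 FPKM in HOMING and 5.68 ± 0.49 FPKM in NC, and fell in TUMOR against BM (-2.18 ± 0.15 SE, adjusted p = 8.16e-08). *Layn*, which encodes the receptor layilin, rose in TUMOR against NC by 1.19 ± 0.07 (SE, adjusted p = 1.39e-08). The 14 matrix partners and heavy chain donors included 4 that were tested. *Itih2*, which reached the filter only through NC and encodes a heavy chain of the inter-alpha-inhibitor that TSG-6 moves to hyaluronan, averaged 0.357 FPKM in TUMOR, 0.917 FPKM in BM, 0.317 FPKM in HOMING and 1.12 FPKM in NC, and rose in BM against HOMING by 1.55 ± 0.16 (SE, adjusted p = 4.28e-06). *Hapln4*, a link protein gene, reached the filter only through TUMOR, and averaged 1.86 FPKM in TUMOR, 0.697 FPKM in BM, 0.267 FPKM in HOMING and 0.47 FPKM in NC.

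In the pentraxin list, *Nptxr*, which encodes the neuronal pentraxin receptor, rose in TUMOR against NC by 1.94 ± 0.16 (SE, adjusted p = 1.99e-07), opposite to *Ptx3*. *Nptx1*, a neuronal pentraxin, averaged 3.95 FPKM in TUMOR, 1.55 FPKM in BM, 1.90 FPKM in HOMING and 2.08 FPKM in NC. It rose in TUMOR against BM by 1.31 ± 0.38 (SE, adjusted p = 0.0076). In TUMOR against HOMING it rose by 1.05 ± 0.37 (SE, adjusted p = 0.0295). The call against HOMING ended in 5 of the 6 fits that left out 1 library of TUMOR or HOMING (0.94 to 1.10 on the log2 scale). *C1qb*, a subunit of the complement protein C1q that PTX3 binds, passed the filter only through HOMING, with 0 in TUMOR, 0.02 FPKM in BM, 1.55 FPKM in HOMING and 0 in NC. Among CD44 partners, *Spp1*, which encodes the CD44 ligand osteopontin, was not called in any comparison, at 199 ± 47.5 FPKM in TUMOR, 214 ± 4.77 FPKM in BM, 122 ± 7.56 FPKM in HOMING and 108 ± 51.9 FPKM in NC. *Adam17*, a protease that sheds CD44, averaged 20.9 FPKM in TUMOR, 19.1 FPKM in BM, 15.3 FPKM in HOMING and 8.18 FPKM in NC. It rose in BM and in TUMOR against NC, by 1.14 ± 0.10 and 1.23 ± 0.10 (SE, adjusted p = 1.16e-06 and 2.63e-07). HOMING also lay above NC without overlap, at 0.79 ± 0.10 (SE), under the minimum fold change. *Mmp9* and *Cd74* were highest in HOMING, at 14.5 FPKM and 26 FPKM, and fell in BM against HOMING (-2.31 ± 0.27 and -3.63 ± 0.26 SE, adjusted p = 1.05e-05 and 1.48e-07), beside the macrophage and neutrophil markers of that group, whose part was not tested.

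**Figure D5:**
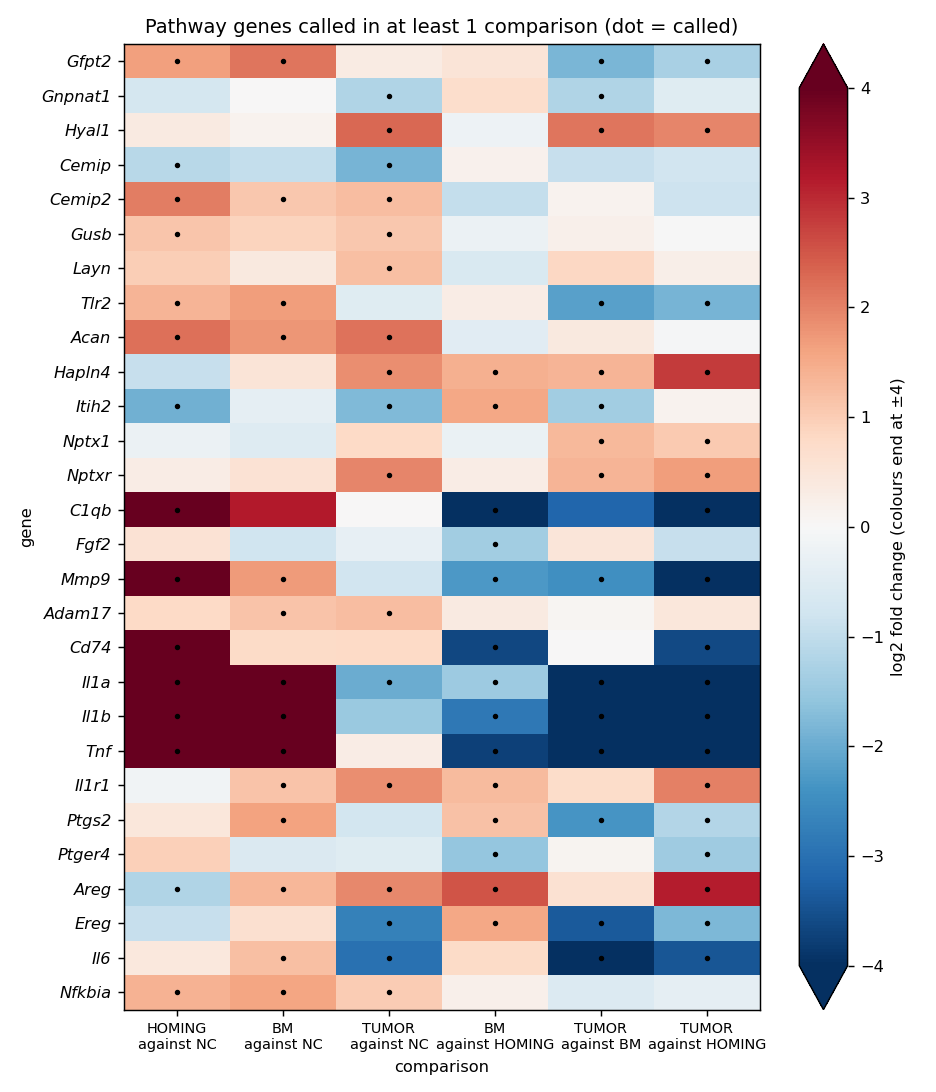
Log2 fold change of the 28 listed genes called in at least 1 comparison, with genes as rows, the 6 comparisons as columns, red for higher and blue for lower in the group named first, and colours ending at ±4. It includes the 7 genes tested through 1 group alone. Dots mark called genes: the interleukin and *Tnf* rows are called lower in both TUMOR against BM and TUMOR against HOMING, while *Hyal1* is called higher in all 3 comparisons of TUMOR.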

How the data were processed

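Bulk RNA was sequenced from 4 groups of 3 sorted mouse stromal cell samples. Per the submitters' processing notes, reads were mapped with Bowtie 0.12.2 to build mm8. The program that estimated counts, and its use of strand, are not given in the sources used here. In the deposited tables the authors give expected counts per transcript, not normalized, and FPKM, scaled by the authors to transcript length and mapped fragments. Transcripts not listed in a library were set to 0. Both values were summed per gene (21001 genes), and 19629 of 19679 Entrez numbers matched a symbol. Library totals were 43232145 to 46166519; counting error alone is a small part of the spread for abundant genes.

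Summed expected counts were rounded and tested with edgeR 4.0.16 in R 4.3.3, using TMM scaling (factors 0.929 to 1.039) and a quasi-likelihood model of all 12 libraries by group, with two-sided F-tests and Benjamini-Hochberg adjustment over 12314 genes, those that reached 1 FPKM in 3 or more libraries. The SE is the absolute log2 fold change divided by the square root of F. Transcripts with enough counts (30685) were fitted the same way. The fit was also run on simulated counts with the same spread for every gene, which these libraries need not have, and no result here rests on it. Members and lists were chosen with earlier results of these data known. Named list genes were, per comparison, among the 4 of a list with the smallest adjusted p or the called genes, or the most abundant where none was called. *Has3*, *Esrp1* and *Esrp2*, which were not tested, were named outside this rule, with levels only. Genes of like pattern had a group mean of 5 FPKM or more and excluded predicted genes.

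Alternatives were median ratio and library size scaling, DESeq2 1.42.0, limma 3.58.1 on log2(FPKM + 1) and log2(FPKM + 0.1), no filter, fits of the compared groups alone, the highest transcript, a replicate block and leaving out each library. Counting named RefSeq transcripts only was added after the data were seen. The main fit did not pair samples by replicate number, and whether the number marks a pairing is not given. Promoters came from RefSeq on GRCm38.p6, and no coordinates of the files' build are given.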

Additional observations from a re-analysis of the deposited data

How the results depend on the processing

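Of 480 alternative values for the 5 genes, 449 moved by less than the spread between libraries. In 15 the sign turned, 14 in *Has1*, of which 8 in comparisons where its sum was called, and 1 in *Has2*: in *Has1* TUMOR against NC was -0.96 with the highest transcript and with named RefSeq transcripts only, BM against HOMING 1.10 and 1.11 with these, 0.02 and 0.03 with limma at a pseudocount of 1 and 0.1, and TUMOR against BM -2.08 with both. Where it was not called, *Has1* in BM against NC was 1.12 and 1.13 with these and 0.44 and 0.72 with limma, and in TUMOR against HOMING -0.98 and -0.97. *Has2* in TUMOR against BM was -0.01 without BM replicate 3 (main 0.09). For *Has1* the alternatives' construction gives the cause, since they leave out the 2 long transcripts or weight them by length. With limma and a pseudocount of 1, genes called among the 5 were 2 in HOMING against NC (main 4), 2 in BM against HOMING (main 4) and 1 in TUMOR against HOMING (main 2); in BM against NC they were 1 (main 2) with both pseudocounts and with library size scaling, and 1 to 2 when a library was left out. Listed genes called were 25 in HOMING against NC (main 15) and 29 in TUMOR against HOMING (main 18) without a filter, and 11 in TUMOR against NC (main 17) and 9 in BM against HOMING (main 14) with limma and a pseudocount of 1. As shares of FPKM, NM_001039151 held 94.7% of *Cd44* in BM, 95.9% in HOMING and 94.7% in NC, and NM_008215 held 18.7% of *Has1* in TUMOR, 87.3% in BM, 42.7% in HOMING and 64.8% in NC, against 1.64%, 36.1%, 5.24% and 11.7% of counts. Of 1482 alternatives for called listed genes, 42 lost the call. The cause of changes other than in *Has1* was not tested. Deviations from group means were little shared by same-numbered libraries: 1 of 18 pairs correlated above 0.1 and 5 of 12 libraries correlated best with their own number. Such correlations cannot show whether same-numbered libraries came from the same animals, so pairing remains unknown. The fit with a replicate block called 4 of the 5 genes in HOMING against NC and 15 listed genes, as without it. Depth limits NM_008215, with as few as 18.5 counts in a library, as does the division of reads it shared with other transcripts.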
